A study of Mus musculus with 8 samples.

Results

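The response of mouse skin to house dust mite (HDM) allergen was described in CTL mice, which drank water without butyrate, by comparing the skin of the 2 lesional CTL mice with that of the 2 baseline CTL mice among the 8 mice of the series. The groups of these 4 mice came from the labels, and the fit was limited to them with earlier results of these data known. Of the 22740 protein-coding genes listed 14863 were tested. All mice were female BALB/c mice on a low-fibre diet. Lesional CTL mice, 6 to 8 weeks old at the first exposure, had 15 µg of HDM extract placed on shaved dorsal skin under an occlusive dressing in each of 4 exposures over 2 weeks. Baseline CTL mice received plain water for 2 weeks and no allergen. The other 4 mice drank 400 mM sodium butyrate and were used here only where stated. Lesional and baseline mice are numbered as different sets in the labels, and no mouse with an allergen-free patch was among the samples, so allergen, shaving, occlusion, age at collection and set of mice cannot be told apart.

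HDM extract carries proteases and microbial products that act on keratinocytes, the cells of the epidermis, which then release alarmins, chemokines and cytokines. Keratinocytes normally move from a basal layer, marked by Krt5 and Krt14, to suprabasal layers, marked by Krt1 and Krt10, and end as a cornified envelope of crosslinked proteins that forms the skin barrier. In atopic dermatitis-like skin inflammation (ADLSI), neutrophils, T cells, mast cells and basophils enter the skin, and keratinocytes take on a wound-type programme with other keratins and envelope proteins.

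Each library came from 1 mouse and held 18004136 to 21085544 counts. Levels are given as CPM, the counts of a gene relative to the library total after scaling by TMM factors. At this depth 3 counts, the floor used here, were 0.137 to 0.165 CPM in these 4 libraries. The 2 mice of a group lay close together. Only 182 of 14017 genes in baseline CTL skin and 140 of 14070 in lesional CTL skin lay more than 2-fold apart, compared to 3553 of 14013 in baseline butyrate skin, which was therefore kept out of the fit. Keratinocyte genes marked the tissue as skin, with Krt5 at 4860 and 4740 CPM in the baseline CTL mice and at 5350 and 4680 CPM in the lesional CTL mice.

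A gene was called when the FDR of edgeR's quasi-likelihood test (Benjamini-Hochberg over all genes tested) was below 0.1 and the fold change above 2, the thresholds of the study. HDM-exposed skin differed from baseline skin in 1918 genes, 12.9% of those tested, with 965 genes (6.49%) higher and 953 (6.41%) lower. The increases were the larger changes. Of the genes called higher 375 rose more than 4-fold (log2 fold change above 2) and 89 had a log2 fold change above 5, whereas 140 of the genes called lower had a log2 fold change below -2 and 4 one below -5. The median log2 fold change was 1.69 among the genes called higher, -1.34 among those called lower and -0.009 over all genes tested. Among abundant genes, with at least 1000 CPM in a group, the order was the opposite, and 26 of 90 were called lower and 9 higher. All 1918 genes called had lesional and baseline mice that did not overlap, but so did 75.5% of all genes tested, so a lack of overlap says little with 2 mice a group. With 2 against 2 mice the smallest p an exact permutation test could give for 1 gene is 0.333, and the FDR rests on spread estimates shared between genes. With library totals in place of TMM factors the split was 1170 higher and 731 lower.

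**Figure D1:**
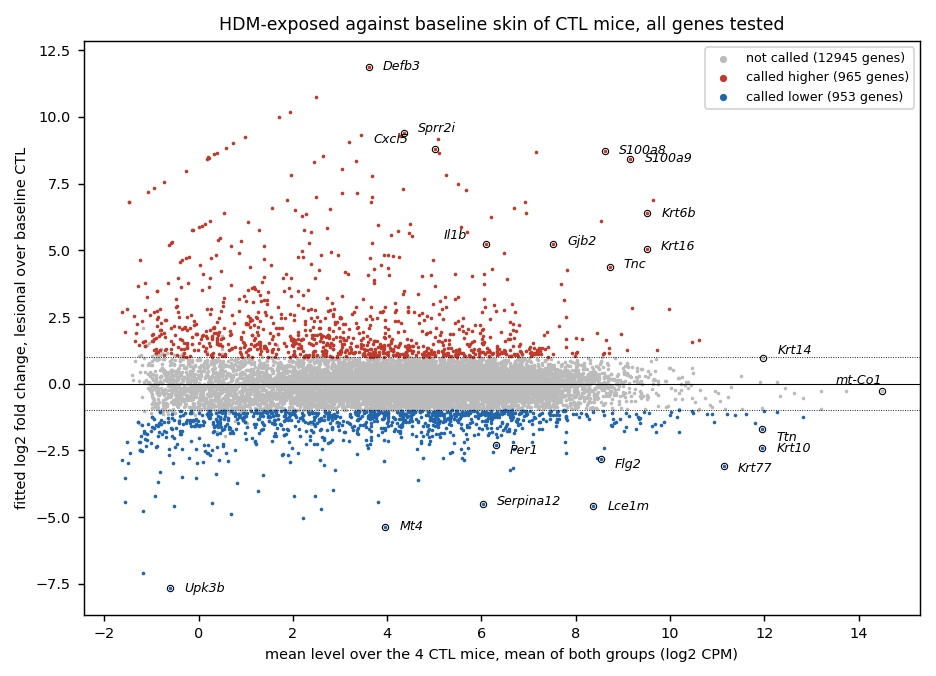
Each point is 1 of the 14863 genes tested, at its mean level over both groups of CTL mice (log2 CPM, x axis) and its fitted log2 fold change between lesional and baseline CTL skin (y axis); dotted lines mark a 2-fold change. The 965 genes called higher reach far larger changes than the 953 called lower, and keratin and muscle genes stand among the abundant genes that were lower.

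The set of genes that attract and mobilise neutrophils rose together. Of 6 such genes 5 passed the filter, and all 5 were called higher with a median log2 fold change of 6.80, or 6.58 when Csf3, which had no count at baseline, was set to its lower bound. Cxcl5, a ligand of the neutrophil receptor Cxcr2, was at 0.0546 and 0.22 CPM in the baseline mice and at 61.6 and 66.8 CPM in the lesional mice (log2 fold change 8.81, SE 0.24, FDR 0.000157). Both lesional mice stood far above both baseline mice, although the size of the ratio rests on only 5 baseline counts (469, 95% exact interval 201 to 1450, for counting error only). Cxcl1, another ligand of this receptor, was at 2.02 and 1.65 CPM at baseline and at 26.1 and 35.9 CPM in lesional skin (log2 fold change 4.07, SE 0.23, FDR 0.000561). Cxcl2 was at 0.164 and 0.275 CPM against 18.6 and 31.5 CPM (log2 fold change 6.80, SE 0.46, FDR 0.00107), and Cxcl3 was at 1 count in each baseline mouse against 75 and 168 counts. Csf3, the growth factor G-CSF that releases neutrophils from the bone marrow, had 0 counts in both baseline mice and 2.33 and 3.61 CPM in the lesional mice, which was at least 18.1-fold higher. The remaining member, Ppbp, was too low to be tested.

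Cxcl1, Cxcl2 and Cxcl3 lie together on mouse chromosome 5, and stretches of their promoters are shown because 3 of the 4 neutrophil chemoattractants with a RefSeq promoter (GRCm38.p6) held a motif of NF-kB, the transcription factor activated by IL-1 and microbial products. The stretches, of 90 bases each, run 5′ to 3′ on the plus strand, and capitals mark the bases that match the motif, which was searched on both strands. The match began 71, 97 and 73 bases before the start site in Cxcl1, Cxcl2 and Cxcl3, and 44 bases before it in Il6, shown for comparison.
Cxcl1 (chr5:90891135-90891224): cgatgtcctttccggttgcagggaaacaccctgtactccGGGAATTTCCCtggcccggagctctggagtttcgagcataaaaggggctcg
Cxcl2 (chr5:90903769-90903858): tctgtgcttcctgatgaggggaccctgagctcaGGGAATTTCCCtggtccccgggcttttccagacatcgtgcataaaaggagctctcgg
Cxcl3 (chr5:90785991-90786080): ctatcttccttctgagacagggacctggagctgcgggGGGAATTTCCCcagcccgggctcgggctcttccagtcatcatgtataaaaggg
Il6 (chr5:30013034-30013123): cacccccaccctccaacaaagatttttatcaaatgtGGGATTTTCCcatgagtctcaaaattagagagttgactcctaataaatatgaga
Cxcl1, Cxcl2 and Cxcl3 carried the same 11 bases. The motif was not particular to the response as a whole, since it was found in 12.2% of the promoters of genes called higher, 9.29% of those called lower, 10.2% of all those tested and 8.18% of the 27025 promoters in the table.

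Neutrophil markers followed the chemoattractants. Of 12 markers tested 10 were called higher and none lower, with a median log2 fold change of 4.68. The summed level of all 15 markers listed was 85.9 and 87.4 CPM at baseline and 2740 and 1770 CPM in lesional skin. Most of the lesional sum was S100a8 (992 and 573 CPM) and S100a9 (1450 and 828 CPM), which activated keratinocytes also make. Cxcr2, the receptor of the chemokines above, was at 2.19 and 2.59 CPM at baseline and at 56.4 and 63.9 CPM in lesional skin (log2 fold change 4.65, SE 0.14, FDR 0.000157). Trem1, which amplifies the activation of myeloid cells, had 0 and 2 counts at baseline against 14.2 and 25.9 CPM. The other neutrophil markers listed were not called or too low to test, among them granule and surface markers. Mpo, which encodes myeloperoxidase, was at 4.59 and 0.991 CPM at baseline and at 1.06 and 1.05 CPM in lesional skin (FDR 0.187), and Ngp and Elane, with at most 0.457 and 0.219 CPM in any mouse, and the surface marker Ly6g, with at most 0.229 CPM, were not tested. In bulk skin a higher level of such genes can come from more cells or from more RNA per cell, and fewer cells and less RNA per cell likewise cannot be told apart.

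S100a8 and S100a9 encode the calprotectin subunits, made by neutrophils and by activated keratinocytes, and were counted among both the neutrophil markers and the alarmins. S100a8 was at 1.31 and 2.37 CPM at baseline and at 992 and 573 CPM in lesional skin (log2 fold change 8.73, SE 0.45, FDR 0.000823). S100a9 was at 3.00 and 3.58 CPM against 1450 and 828 CPM (log2 fold change 8.43, SE 0.40, FDR 0.000621). In all 10 of 12 alarmin and antimicrobial genes tested were called higher and none lower. The median of the list was 3.40 on the log2 scale, or 2.75 with the 2 genes absent at baseline set to their bounds. Defb3, a beta-defensin of epithelia, had 0 counts in both baseline mice and 27.3 and 21.5 CPM in the lesional mice, which was at least 148-fold higher. Lcn2, an iron-sequestering protein, was at 5.57 and 5.89 CPM against 179 and 166 CPM (log2 fold change 4.91, SE 0.10, FDR 9.96e-05), with the smallest FDR among all genes tested. Defb1, the constitutive defensin of the list, was not called.

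Cytokines of the IL-1, IL-6 and IL-20 families were among the genes called higher, and both chains of the IL-20 receptor listed were called lower. Neither receptor chain was called lower in a fit of all 8 mice. Of 11 IL-1 and IL-36 family genes 5 were called higher and none lower. Il1b was at 4.48 and 2.53 CPM at baseline and at 131 and 135 CPM in lesional skin (log2 fold change 5.24, SE 0.22, FDR 0.000433). The 3 IL-36 agonists, epidermal members of the IL-1 family listed as Il1f6, Il1f8 and Il1f9, were all called higher. Of these Il1f6 rose the most, from 4.21 and 2.92 CPM to 39.0 and 34.7 CPM (log2 fold change 3.37, SE 0.18, FDR 0.000554). Nlrp3, the inflammasome sensor, was at 1.15 and 1.93 CPM against 13.0 and 17.1 CPM (log2 fold change 3.29, SE 0.28, FDR 0.00131).

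Il6 was at 0.656 and 0.22 CPM at baseline and at 11.2 and 16.0 CPM in lesional skin (log2 fold change 4.93, SE 0.41, FDR 0.00142). Osm, which encodes oncostatin M, a leukocyte cytokine of the same family, was at 0.219 and 0.935 CPM against 9.64 and 12.7 CPM (log2 fold change 4.26, SE 0.46, FDR 0.00266). Their feedback inhibitor Socs3 was called higher as well, and 6 of 12 genes of the IL-6 and STAT3 list were called higher and none lower. Of 11 genes of the IL-17, IL-22 and IL-20 list 4 were called higher and 2 lower. Il24 had 0 and 1 count at baseline against 277 and 154 counts, and Il19 was at 0.492 and 0.88 CPM against 56.1 and 10.6 CPM (log2 fold change 5.58, SE 1.11, FDR 0.016). The 2 lesional mice differed 5-fold in Il19 and overlapped with neither baseline mouse. Il20 was at 1.53 and 1.27 CPM against 2.49 and 2.93 CPM and was not called (log2 fold change 0.95, SE 0.26, FDR 0.0327, under the 2-fold minimum). The receptor chain Il20ra fell from 73.3 and 66.3 CPM to 8.74 and 13.9 CPM (log2 fold change -2.61, SE 0.22, FDR 0.00162), and Il20rb was also called lower. Il17f had 0 counts in both baseline mice and 73 and 18 counts in the lesional mice, at least 14.2-fold higher. Its partner Il17a had no baseline count either, and reached 0.953 and 0.229 CPM, too low to be tested.

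Of 12 genes of NF-kB feedback and the inflammasome 5 were called higher and none lower. Besides Nlrp3 these included Bcl3, an IkB-type regulator, at 12.6 and 17.1 CPM against 71.9 and 71.0 CPM (log2 fold change 2.27, SE 0.15, FDR 0.000834). They also included Zc3h12a, an RNase that degrades cytokine mRNAs, at 27.5 and 24.3 CPM against 115 and 91.5 CPM (log2 fold change 2.00, SE 0.14, FDR 0.000946).

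Type 2 immunity, the arm driven by IL-4 and IL-13, was raised on the side of the cytokine and of several receptors. Il13 had 2 and 0 counts at baseline and 68 and 35 counts in lesional skin (ratio 46.0, 95% exact interval 12.4 to 385). Il33, an alarmin of keratinocytes and stromal cells, was at 31.4 and 38.9 CPM against 169 and 166 CPM (log2 fold change 2.25, SE 0.12, FDR 0.000517). Its receptor Il1rl1 (ST2) was at 6.34 and 7.76 CPM against 55.3 and 56.5 CPM (log2 fold change 2.99, SE 0.12, FDR 0.000299). Il4ra, the shared receptor chain of IL-4 and IL-13, was at 58.4 and 79.0 CPM against 270 and 260 CPM (log2 fold change 1.95, SE 0.15, FDR 0.00126). Il13ra2, the decoy receptor of IL-13, was at 3.00 and 2.31 CPM against 19.2 and 15.0 CPM (log2 fold change 2.68, SE 0.21, FDR 0.00115). In all 6 of 11 genes tested were called higher and 1 lower. That gene was Il31ra, a receptor chain of the itch cytokine IL-31, at 87.7 and 73.7 CPM against 12.0 and 17.4 CPM (log2 fold change -2.45, SE 0.19, FDR 0.00145). Tslp, another keratinocyte cytokine of type 2 responses, was not called (log2 fold change -0.63). Il31 itself had no count in any of the 4 mice.

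**Figure D2:**
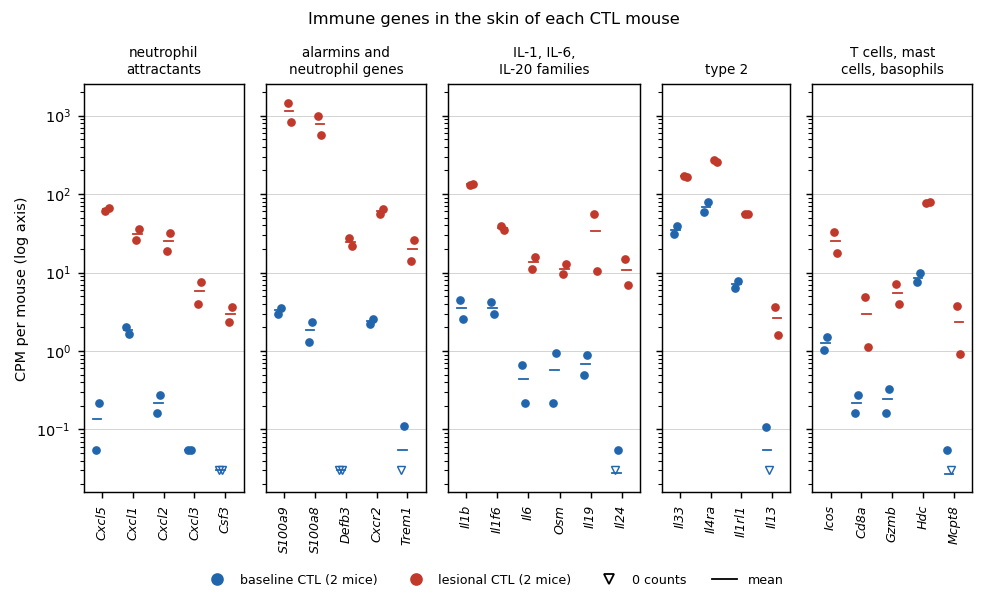
CPM of immune genes in each CTL mouse on a log axis, with blue points for the 2 baseline mice, red points for the 2 lesional mice, short lines for group means and open triangles for 0 counts. In every gene shown both lesional mice lie above both baseline mice, and Il19 and Cd8a are the genes in which the lesional mice lie farthest apart.

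Among CC chemokines 8 of 17 genes tested were called higher and none lower. Ccl8, a ligand of receptors on eosinophils and type 2 T cells, was at 34.7 and 52.6 CPM against 452 and 318 CPM (log2 fold change 3.14, SE 0.27, FDR 0.00203). Ccl3 was at 0.0546 and 0.44 CPM against 8.21 and 11.5 CPM (log2 fold change 5.28, SE 0.52, FDR 0.00206), and Ccl4, a close relative of Ccl3, had a log2 fold change of 4.75. Of 14 chemokine receptors tested 9 were called higher. The 1 called lower was Ccr4, a receptor of skin-homing T cells, at 11.6 and 8.69 CPM against 5.14 and 2.93 CPM (log2 fold change -1.34, SE 0.30, FDR 0.0191), whereas its ligands Ccl17 and Ccl22 were called higher. In a fit of all 8 mice 3 of the 14 receptors were called higher and none lower, so the call of Ccr4 was lost.

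T cell markers were higher, with 11 of 12 called and a median log2 fold change of 2.06. Icos, a costimulatory receptor of activated T cells, was at 1.04 and 1.49 CPM at baseline and at 33.0 and 17.5 CPM in lesional skin (log2 fold change 4.31, SE 0.43, FDR 0.00249). Foxp3, which marks regulatory T cells, was at 0.765 and 0.66 CPM against 8.47 and 5.62 CPM (log2 fold change 3.29, SE 0.32, FDR 0.00179). Cd8a was at 0.164 and 0.275 CPM against 4.87 and 1.14 CPM (log2 fold change 3.72, SE 0.98, FDR 0.0346), and its call was lost without either baseline mouse. Lesional replicate 4 was above lesional replicate 5 in each of these genes. The summed level of the T cell markers was 172 and 97.3 CPM in the lesional mice, compared to 37.3 and 35.1 CPM at baseline.

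Of 11 mast cell and basophil markers 9 were called higher and 1 lower, with a median of 1.48. Hdc, the enzyme that makes histamine, was at 7.54 and 9.74 CPM at baseline and at 76.4 and 79.5 CPM in lesional skin (log2 fold change 3.17, SE 0.13, FDR 0.000313). Mcpt8, a basophil protease, had 1 and 0 counts at baseline against 71 and 20 counts (ratio 81.3, 95% exact interval 14.2 to 3250). Cma1, Mcpt4, Cpa3, Tpsb2 and Tpsab1, proteases of connective tissue mast cells, rose less, with log2 fold changes of 1.27 to 1.70. Mrgprb2, a receptor by which mast cells respond to peptides, was the member called lower, at 16.2 and 15.6 CPM against 4.61 and 5.53 CPM (log2 fold change -1.64, SE 0.15, FDR 0.00153).

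Macrophage and dendritic cell genes changed less. In the list of monocyte and macrophage markers 4 of 15 were called higher and 1 lower, with a median of 0.48. Cd14, the coreceptor for bacterial lipopolysaccharide, was at 7.76 and 9.30 CPM against 38.8 and 59.1 CPM (log2 fold change 2.52, SE 0.24, FDR 0.00211). Cd163, a scavenger receptor of tissue macrophages, was at 75.2 and 92.4 CPM against 189 and 238 CPM (log2 fold change 1.35, SE 0.15, FDR 0.00289). Arg1, an arginase of both macrophages and keratinocytes, was the member called lower, at 41.0 and 31.9 CPM against 8.74 and 10.8 CPM (log2 fold change -1.89, SE 0.17, FDR 0.00157). Odc1 and Ass1, other genes of arginine use, were called higher, with log2 fold changes of 1.96 and 1.77. Cd207, the marker of Langerhans cells, was at 34.4 and 30.4 CPM against 19.0 and 35.2 CPM and was not called. Ccr7, Flt3 and Pdcd1lg2, which mark migrating or conventional dendritic cells, were the 3 of 13 called higher. Eosinophil markers were sparse. Of 5 only 2 could be tested, and Ccr3 was called higher (0.382 and 0.22 CPM against 1.59 and 3.52 CPM). Gzmb, a cytotoxic granule protease, was the 1 of 6 NK and cytotoxic genes called, at 0.164 and 0.33 CPM against 7.09 and 4.02 CPM. Of 6 B and plasma cell genes only Mzb1 could be tested, and it was called lower (log2 fold change -1.28). The summed level of this list was only 1.75 and 2.15 CPM at baseline and 2.06 and 1.55 CPM in lesional skin. A fit of all 8 mice called none of its genes.

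The epidermal programme showed opposite movements of neighbouring families. Basal keratins did not move together. Krt5 hardly differed and was not called (log2 fold change 0.06, SE 0.15, FDR 0.759). Krt14 was higher in both lesional mice, at 2720 and 2780 CPM against 5870 and 4730 CPM, but stayed just under the 2-fold minimum (log2 fold change 0.95, SE 0.16, FDR 0.0078). Krt15, the keratin of resting basal and bulge cells, fell from 1830 and 1770 CPM to 430 and 610 CPM (log2 fold change -1.79, SE 0.19, FDR 0.00203). Dst, which encodes the hemidesmosome protein dystonin, fell as well, from 1400 and 1260 CPM to 406 and 502 CPM.

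Suprabasal genes were lower, with 6 of 10 called and none higher, and a median of -1.09. In a fit of all 8 mice 2 of the 10 were called lower, and Krt10, Krt1 and Krt77 were not called. Krt10, the main suprabasal type I keratin, was at 6830 and 6610 CPM at baseline and at 828 and 1680 CPM in lesional skin (log2 fold change -2.42, SE 0.35, FDR 0.0059). Its partner Krt1 fell less, from 3300 and 3260 CPM to 1470 and 1490 CPM (log2 fold change -1.15, SE 0.12, FDR 0.00211). Krt77 was at 4170 and 3890 CPM against 193 and 757 CPM (log2 fold change -3.09, SE 0.66, FDR 0.0197). In both Krt10 and Krt77 lesional replicate 4 was the lowest of the 4 mice. Calm4, a calmodulin-like gene of the same layers, was not called (853 and 798 CPM against 916 and 852 CPM, log2 fold change 0.10, SE 0.11, FDR 0.489).

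The keratins of injured epidermis rose. All 4, Krt6a, Krt6b, Krt16 and Krt17, were called higher, with a median log2 fold change of 3.91 and a summed level of 1150 and 1010 CPM at baseline against 8480 and 5530 CPM. Krt6b was at 15.6 and 19.2 CPM against 1790 and 1110 CPM (log2 fold change 6.39, SE 0.31, FDR 0.000577). Krt16, the type I partner of the Krt6 keratins, was at 40.8 and 45.5 CPM against 1690 and 1140 CPM (log2 fold change 5.03, SE 0.24, FDR 0.000525). Krt6a was at 278 and 234 CPM against 2140 and 1400 CPM (log2 fold change 2.79, SE 0.24, FDR 0.00159). Reads that fit both Krt6a and Krt6b could have been split between them by the counting, so the separate values are less certain than their direction.

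Small proline-rich (Sprr) proteins are precursors of the cornified envelope made under stress. Of 16 genes listed 13 were tested, and all 13 were called higher, with a median log2 fold change of 6.60, or 5.91 with Sprr2j-ps, absent at baseline, set to its bound. Sprr2i had 1 count in each baseline mouse and 45.4 and 36.5 CPM in the lesional mice (ratio 739, 95% exact interval 204 to 6110). Sprr2b had 1 and 0 counts against 29.0 and 14.1 CPM. Sprr2d was at 2.46 and 1.71 CPM against 249 and 156 CPM (log2 fold change 6.60, SE 0.34, FDR 0.000823), and Sprr2h at 7.70 and 6.66 CPM against 160 and 127 CPM (log2 fold change 4.32, SE 0.16, FDR 0.000245). The member with the smallest change, Sprr1a, still rose from 152 and 138 CPM to 1010 and 1060 CPM (log2 fold change 2.83, SE 0.11, FDR 0.000245). The 10 Sprr2 genes tested are direct neighbours among tested genes, from 92215799 to 92419396 on chromosome 3 (GRCm38, GENCODE vM21), and their near-identical sequences make the split of reads among them uncertain.

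Since these neighbours rose together, stretches of 4 of their promoters on chromosome 3 are shown, with capitals for the motif TGANTCA of AP-1, the Fos and Jun dimer that acts downstream of growth factor and stress signals in keratinocytes. The motif reads the same on both strands, and it began 195, 193, 198 and 193 bases before the start site in Sprr2b, Sprr2d, Sprr2h and Sprr2i.
Sprr2b (chr3:92316490-92316579): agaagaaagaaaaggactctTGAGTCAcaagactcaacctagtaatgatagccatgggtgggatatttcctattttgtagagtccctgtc
Sprr2d (chr3:92338925-92339014): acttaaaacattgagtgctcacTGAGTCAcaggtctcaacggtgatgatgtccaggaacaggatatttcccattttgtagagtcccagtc
Sprr2h (chr3:92385470-92385559): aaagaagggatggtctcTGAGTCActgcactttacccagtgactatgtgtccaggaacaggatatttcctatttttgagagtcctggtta
Sprr2i (chr3:92407776-92407865): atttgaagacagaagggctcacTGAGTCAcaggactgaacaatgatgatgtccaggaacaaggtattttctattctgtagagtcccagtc
The plus-strand sequences carried the same 7 bases at nearly the same distance from the start. Of the 13 Sprr genes tested 11 had a promoter in the RefSeq table, and 8 of these held TGANTCA and 8 held TATAAA on the gene's strand. Over all genes, TGANTCA was found in 12.1% of the promoters of genes called higher, 7.98% of those called lower, 5.11% of those tested and not called, and 7.93% of the whole table. For TATAAA the shares were 13.0%, 8.13%, 4.32% and 8.88%. These are counts of letters in promoters, given as a description without a test. Of AP-1 subunits, Fosl1 was at 6.50 and 3.91 CPM against 36.5 and 40.1 CPM (log2 fold change 2.88, SE 0.23, FDR 0.00133) and Junb was called higher at 125 and 98.8 CPM against 235 and 219 CPM, while Fos, at 173 and 55.3 CPM against 128 and 72.8 CPM, was not called.

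Late cornified envelope (Lce) genes, from the same epidermal differentiation complex on chromosome 3, split by subfamily. All 6 Lce3 genes, which are induced by barrier injury, were called higher, with a median log2 fold change of 5.80. Lce3b had 2 counts in each baseline mouse and was at 27.5 and 23.7 CPM in the lesional mice (ratio 232, 95% exact interval 90.3 to 853), and Lce3e was at 0.437 and 0.44 CPM against 32.7 and 22.1 CPM (log2 fold change 5.94, SE 0.32, FDR 0.000561). Of 14 Lce1 genes, which belong to normal differentiation, 7 were called lower and none higher, with a median of -0.94. Lce1m was at 676 and 593 CPM at baseline and at 11.4 and 41.0 CPM in lesional skin (log2 fold change -4.59, SE 0.62, FDR 0.00543).

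Other envelope proteins moved in the same split way. Lor, which encodes loricrin, a main envelope protein of normal skin, fell from 689 and 611 CPM to 99.9 and 146 CPM (log2 fold change -2.40, SE 0.20, FDR 0.00152). Flg2, a relative of filaggrin, fell from 705 and 595 CPM to 54.0 and 129 CPM (log2 fold change -2.83, SE 0.43, FDR 0.0073). The calls of Lor and Flg2 did not hold in the fit of all 8 mice. Rptn, which encodes repetin, rose from 37.2 and 19.6 CPM to 471 and 291 CPM (log2 fold change 3.75, SE 0.40, FDR 0.00305). Ivl, which encodes involucrin, stayed under the fold minimum, at 144 and 145 CPM against 164 and 165 CPM (log2 fold change 0.18, SE 0.07, FDR 0.0933). Mt4, a metallothionein of stratified epithelium, had the largest decrease among genes tested with counts in both lesional mice, from 27.4 and 33.5 CPM to 0.371 and 1.05 CPM (log2 fold change -5.37, SE 0.34, FDR 0.000906). The other metallothionein and stress genes of its list were not called.

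**Figure D3:**
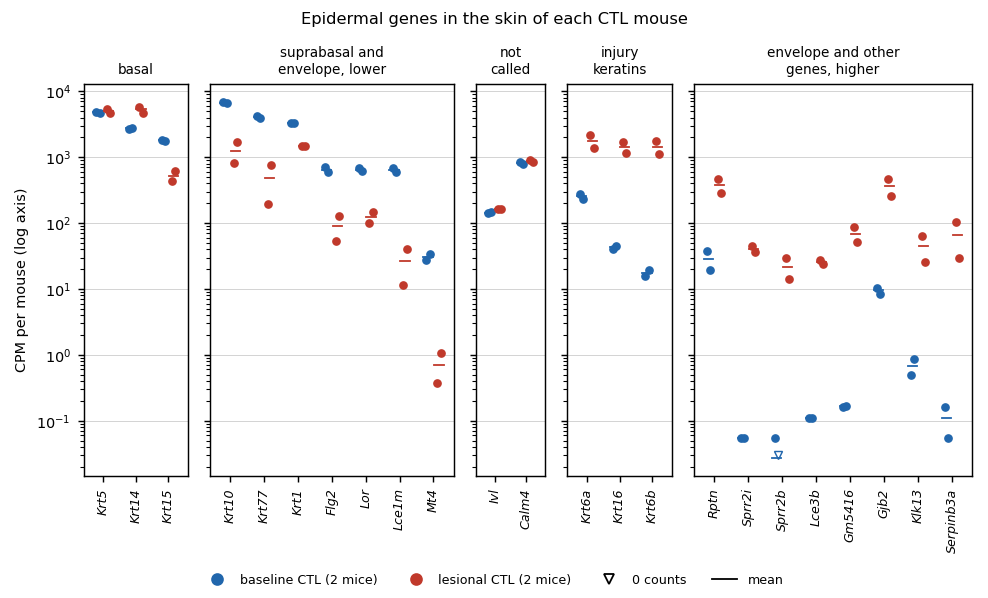
CPM of epidermal genes in each CTL mouse on a log axis, with blue points for baseline and red points for lesional mice, short lines for group means and an open triangle for 0 counts. Krt10, Krt77, Krt1, Flg2, Lor, Lce1m and Mt4 are lower in both lesional mice, whereas Krt6a, Krt16, Krt6b and the genes on the right are higher, and Ivl and Calm4 hardly differ.

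Protease inhibitors of the stefin A family, cytosolic inhibitors of cysteine proteases, rose as a block. All 9 genes of the cluster were called higher, with a median log2 fold change of 6.90 (6.41 with Gm5483, absent at baseline, at its bound). They are direct neighbours among tested genes on chromosome 16 from 36119946 to 36455392. BC100530 was at 12.0 and 14.4 CPM against 2030 and 1130 CPM (log2 fold change 6.90, SE 0.38, FDR 0.000858), and Gm5416 had 3 counts in each baseline mouse against 86.8 and 50.8 CPM. These genes are near-identical copies, so the level of each copy is uncertain.

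Epidermal serpins and kallikreins, which control shedding of the cornified layer and protease activity, moved in both directions. Serpinb3a had 3 and 1 counts at baseline and 104 and 29.8 CPM in lesional skin (ratio 586, 95% exact interval 229 to 2150), with a 3-fold gap between the lesional mice. Serpina12 (vaspin), an inhibitor of kallikrein 7, was at 133 and 118 CPM against 3.18 and 7.68 CPM (log2 fold change -4.50, SE 0.36, FDR 0.00167). Among 14 desquamation genes 7 were called higher and 1 lower. Klk13 was at 0.492 and 0.88 CPM against 62.8 and 25.4 CPM (log2 fold change 5.99, SE 0.67, FDR 0.00343), and Klk12 and Klk14 had log2 fold changes of 4.00 and 4.12. Klk5, a main protease of normal desquamation, was the member called lower, at 95.0 and 88.2 CPM against 41.3 and 41.4 CPM (log2 fold change -1.15, SE 0.08, FDR 0.000884).

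Cell contacts and growth signals were represented by few but large changes. Gjb2 (connexin 26) was at 10.5 and 8.47 CPM at baseline and at 462 and 256 CPM in lesional skin (log2 fold change 5.24, SE 0.36, FDR 0.00131), and its relative Gjb6 (connexin 30) was at 3.22 and 2.92 CPM against 63.7 and 36.8 CPM. Neither connexin was called in the fit of all 8 mice. Cldn23, a claudin of differentiated epithelium, fell from 21.1 and 19.5 CPM to 3.76 and 6.26 CPM (log2 fold change -2.01, SE 0.24, FDR 0.00297). Of 8 genes of the EGF receptor list 4 ligands were called higher. Areg, which encodes amphiregulin, was at 4.64 and 3.25 CPM against 30.7 and 20.8 CPM (log2 fold change 2.70, SE 0.27, FDR 0.00211). Hbegf and Epgn rose by similar amounts, with log2 fold changes of 2.62 and 2.42. Btc, which encodes betacellulin, was the ligand called lower, at 44.0 and 42.6 CPM against 9.05 and 9.51 CPM (log2 fold change -2.22, SE 0.10, FDR 0.000343).

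Proliferation genes changed by small amounts in 1 direction. All 28 cell cycle genes had a log2 fold change above 0 with a median of 0.66, but only Rrm2, Ccne1, Mcm5 and Mcm3 passed the 2-fold minimum, and the count called was 1 without lesional replicate 4 and 9 without lesional replicate 5. Rrm2, a ribonucleotide reductase subunit, was at 23.2 and 23.3 CPM against 68.1 and 50.1 CPM (log2 fold change 1.34, SE 0.16, FDR 0.003). Mki67, the marker of cycling cells, was at 141 and 138 CPM against 217 and 178 CPM (log2 fold change 0.50, SE 0.11, FDR 0.0172).

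Among matrix genes the calls fell on proteases and wound proteins and not on fibrillar collagens. Which cells or layer of the skin held these transcripts cannot be told from whole skin. Of 16 matrix proteases and inhibitors 12 were called higher and 1 lower, with a median log2 fold change of 2.69. Mmp13, an interstitial collagenase, was at 0.492 and 0.825 CPM against 127 and 77.5 CPM (log2 fold change 7.27, SE 0.41, FDR 0.000946), and Mmp10 (stromelysin-2) had 1 and 3 counts at baseline against 9.90 and 9.24 CPM. Mmp13, Mmp12, Mmp1b, Mmp3, Mmp10 and Mmp8 lie next to each other on chromosome 9 from 7272514 to 7568485, and all 6 were called higher. The inhibitors split, with Timp1 at 5.24 and 7.48 CPM against 110 and 99.1 CPM (log2 fold change 4.04, SE 0.17, FDR 0.000343) and Timp3 called lower (log2 fold change -1.17). Tnc, the wound glycoprotein tenascin C, was at 45.8 and 31.6 CPM against 923 and 688 CPM (log2 fold change 4.38, SE 0.25, FDR 0.000862). The 3 hyaluronan synthases were all called higher, with Has3 at 4.81 and 4.68 CPM against 92.1 and 72.7 CPM (log2 fold change 4.12, SE 0.16, FDR 0.000245). None of 16 collagen and fibroblast matrix genes was called, and Col3a1 was at 2290 and 2940 CPM against 2890 and 3500 CPM (log2 fold change 0.29, SE 0.18, FDR 0.249).

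Of 15 genes of endothelium and adhesion 2 were called higher and none lower, compared to 6.49% and 6.41% over all genes tested. Sele (E-selectin), which slows leukocytes on inflamed vessels, was at 2.95 and 4.51 CPM against 31.3 and 23.5 CPM (log2 fold change 2.87, SE 0.25, FDR 0.00153). Selp (P-selectin) was at 5.24 and 6.49 CPM against 39.2 and 35.9 CPM (log2 fold change 2.68, SE 0.14, FDR 0.000517). Ptgs2, the inducible cyclooxygenase, was at 5.08 and 3.85 CPM against 51.9 and 40.5 CPM (log2 fold change 3.37, SE 0.19, FDR 0.000621). Of the 14 complement genes, C3 and C5ar1 were called higher, with log2 fold changes of 1.32 and 1.32, and both calls were lost without lesional replicate 5, whereas 5 were called without baseline replicate 2 and 4 without lesional replicate 4.

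Lipid and energy metabolism changed little by the 2-fold rule. None of 21 cholesterol synthesis genes, 13 fatty acid synthesis genes, 14 glycolysis genes or 13 mitochondrial DNA-encoded genes was called. Without a fold minimum 50.5% of all genes tested had an FDR below 0.1, so a missing call here does not show that a gene was equal in both groups. All 16 fatty acid oxidation genes had a log2 fold change below 0, with a median of -0.46, and 2 were called lower. Over all genes tested 6.41% were called lower. Ppara, the nuclear receptor that drives fatty acid oxidation, fell from 11.4 and 8.20 CPM to 4.61 and 3.57 CPM (log2 fold change -1.26, SE 0.23, FDR 0.00957). Its log2 fold change ranged from -1.48 to -1.0 with 1 mouse left out, and it was not called in the fit of all 8 mice.

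Of 20 ceramide and acylceramide genes of the barrier 2 were called higher and 2 lower. Over all genes tested 6.49% were called higher and 6.41% lower, and counts as small as these say little about a list. Aloxe3, a lipoxygenase of the cornified lipid envelope, fell from 117 and 94.5 CPM to 39.5 and 45.5 CPM (log2 fold change -1.32, SE 0.13, FDR 0.002), and Degs2, a desaturase that makes phytoceramides, rose from 3.17 and 1.76 CPM to 14.5 and 12.6 CPM (log2 fold change 2.45, SE 0.27, FDR 0.00233). Acacb, an acetyl-CoA carboxylase, was at 243 and 241 CPM against 136 and 133 CPM and missed the fold minimum (log2 fold change -0.84, SE 0.08, FDR 0.00145). Acaca, Elovl6, Cers3 and Smpd1 were not called, with log2 fold changes of -0.46, -0.43, 0.46 and -0.32, and B3galt2 was called lower at -1.19. Of 11 sebaceous gland genes 3 were called higher (1 without lesional replicate 4) and 1 lower. The latter was Scd3, a desaturase of sebocytes, at 509 and 247 CPM against 42.6 and 83.8 CPM (log2 fold change -2.58, SE 0.48, FDR 0.0129), a call lost without lesional replicate 4. Of 13 adipocyte genes 2 were called lower. The glucose transporter Slc2a4 had a log2 fold change of -1.12, equal to the median of the skeletal muscle genes (-1.12). The part of muscle in this change was not tested. The adrenergic receptor Adrb3 had a log2 fold change of -1.18. Both calls were lost without baseline replicate 2, and 4 genes were called lower without baseline replicate 1. Among 5 butyrate receptors and transporters tested, the transporters Slc5a8 and Slc16a1 were called higher, with log2 fold changes of 1.08 and 1.03, and both calls were lost without baseline replicate 2. None of 10 housekeeping genes and none of 7 melanocyte genes was called.

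**Figure D4:**
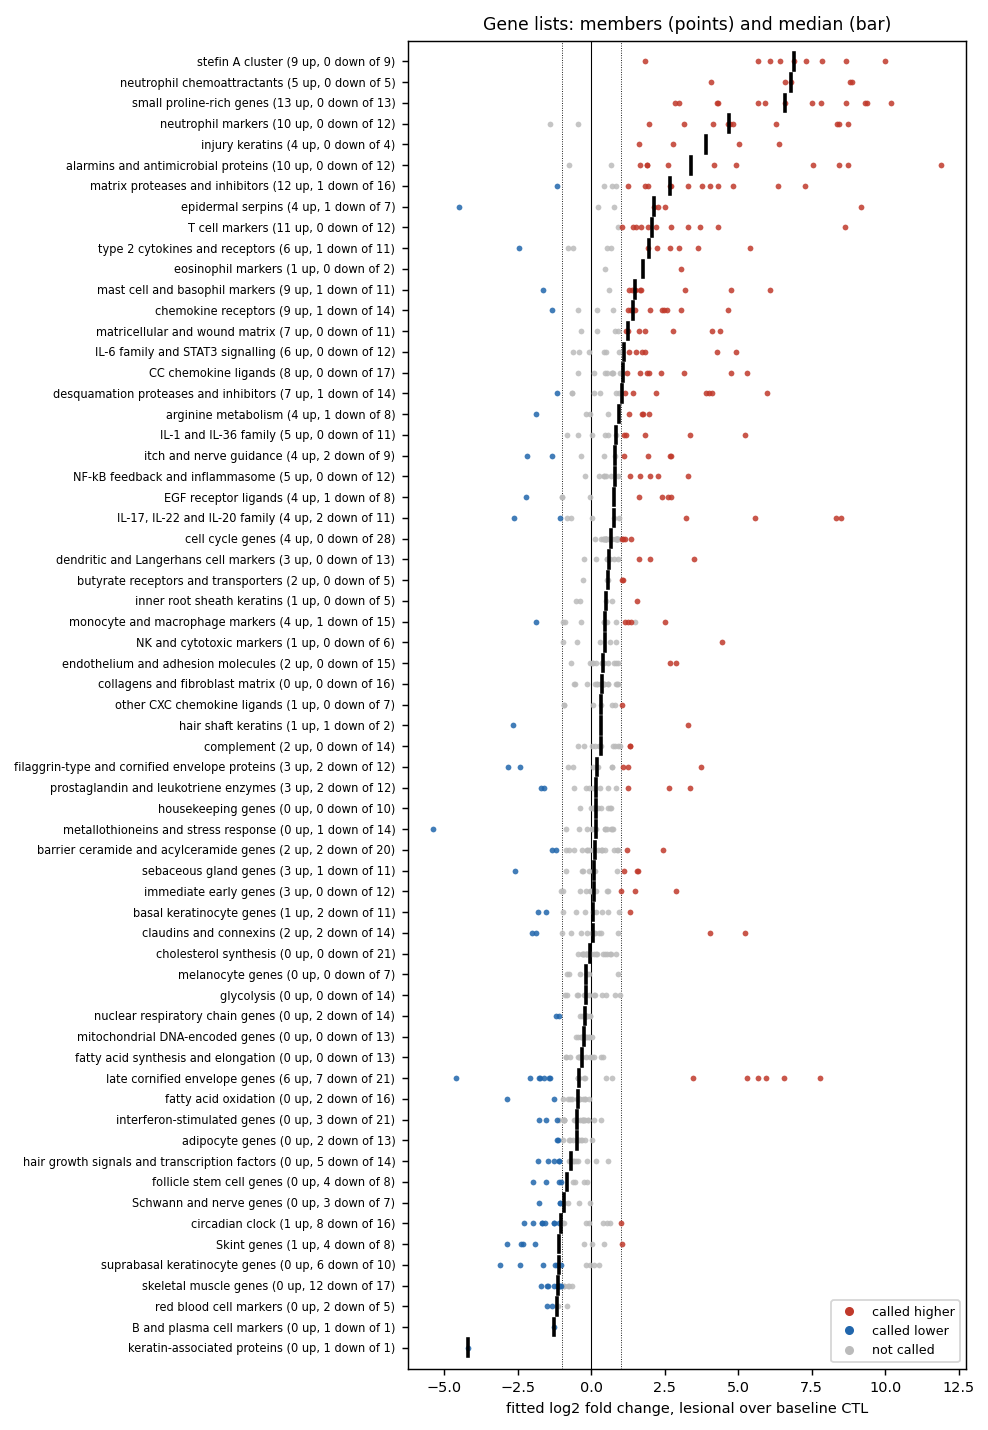
Fitted log2 fold change of every tested member (points) of the gene lists, with the list median as a black bar, ordered by the median, and the numbers of genes called in each direction beside the names; dotted lines mark a 2-fold change. Stefin A, neutrophil and Sprr genes stand at the top, muscle, suprabasal, Skint and clock genes near the bottom, and the Lce genes on both sides.

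Genes of skeletal muscle, from the muscle sheet under mouse skin, were the largest block among the abundant genes that were lower. Of 17 tested 12 were called lower, all 17 had a log2 fold change below 0, and the median was -1.12. Their summed level was 61400 and 71800 CPM at baseline against 25200 and 35100 CPM in lesional skin, or 5.89% and 6.87% of counts against 2.65% and 3.65%. Ttn, which encodes titin, was at 6530 and 5630 CPM against 1680 and 2050 CPM (log2 fold change -1.71, SE 0.17, FDR 0.00192). Myh1, Myh2, Myh4 and Myh8, the myosin heavy chains that lie next to each other on chromosome 11, were all called lower, with Myh4 at 8160 and 12200 CPM against 3170 and 5280 CPM (log2 fold change -1.27, SE 0.32, FDR 0.0281). The number called was 4 without baseline replicate 2, 3 without lesional replicate 4 and 0 in a fit of all 8 mice. The part of this share in the other results was not tested gene by gene. Without the 18 muscle genes, left out after these values were seen, 971 genes were called higher and 929 lower.

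Some genes of the hair follicle were called lower. Of 8 follicle stem cell genes 4 were called lower and none higher, with a median of -0.82. Lgr5, the marker of follicle stem cells, was at 38.9 and 38.4 CPM against 10.3 and 9.42 CPM (log2 fold change -1.97, SE 0.10, FDR 0.000517). Lhx2, a transcription factor of the same cells, was at 52.7 and 46.9 CPM against 15.4 and 18.7 CPM (log2 fold change -1.54, SE 0.13, FDR 0.00122). Of 14 hair growth genes tested 5 were called lower and none higher. Bmp4, a signal that keeps follicles at rest, was at 39.3 and 42.2 CPM against 11.3 and 11.8 CPM (log2 fold change -1.81, SE 0.10, FDR 0.000554), and Wnt10b, a signal of follicle growth, was at 4.48 and 4.46 CPM against 1.59 and 1.60 CPM. Hair shaft keratins were too low for most tests in both groups, and only 2 of the 12 listed were tested, with Krt32 called lower and Krt84 higher. Of 5 inner root sheath keratins tested 1, Krt27, was called higher and none lower, with a median of 0.49.

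Parts of the nerve, clock and Skint lists were called lower. Of 7 Schwann and nerve genes 3 were called lower and none higher, with a median of -0.94. S100b, a calcium-binding protein of Schwann cells, was at 3.93 and 4.51 CPM against 2.33 and 1.69 CPM (log2 fold change -1.08, SE 0.25, FDR 0.02). Its log2 fold change ranged from -1.31 to -0.85 with 1 mouse left out. In the fit of all 8 mice S100b was not called, and 1 of the 7 nerve genes was called lower. Sema3d, a semaphorin that guides axons, was at 88.7 and 73.8 CPM against 11.8 and 23.8 CPM (log2 fold change -2.18, SE 0.33, FDR 0.00714), while Artn, which encodes the nerve growth signal artemin, rose from 0.71 and 0.88 CPM to 3.12 and 2.97 CPM (log2 fold change 1.93, SE 0.27, FDR 0.00434).

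Of 16 circadian genes 8 were called lower and 1, Cry1, higher. Per1 was at 127 and 135 CPM against 23.5 and 30.0 CPM (log2 fold change -2.29, SE 0.13, FDR 0.000561), Dbp had a log2 fold change of -1.99 and Nr1d1 one of -1.67. These genes cycle over the day, and the hour at which skin was taken is not given in the sources used here. Skint genes encode butyrophilin-like proteins of keratinocytes, of which Skint1 selects epidermal gamma delta T cells. Of 8 tested 4 were called lower and 1 higher. Skint10, Skint6, Skint5 and Skint11, which lie together on chromosome 4, were the 4 lower ones, and Skint10 was at 94.8 and 83.2 CPM against 9.11 and 24.3 CPM (log2 fold change -2.40, SE 0.43, FDR 0.0118). Skint1 was not called (log2 fold change 0.44).

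**Figure D5:**
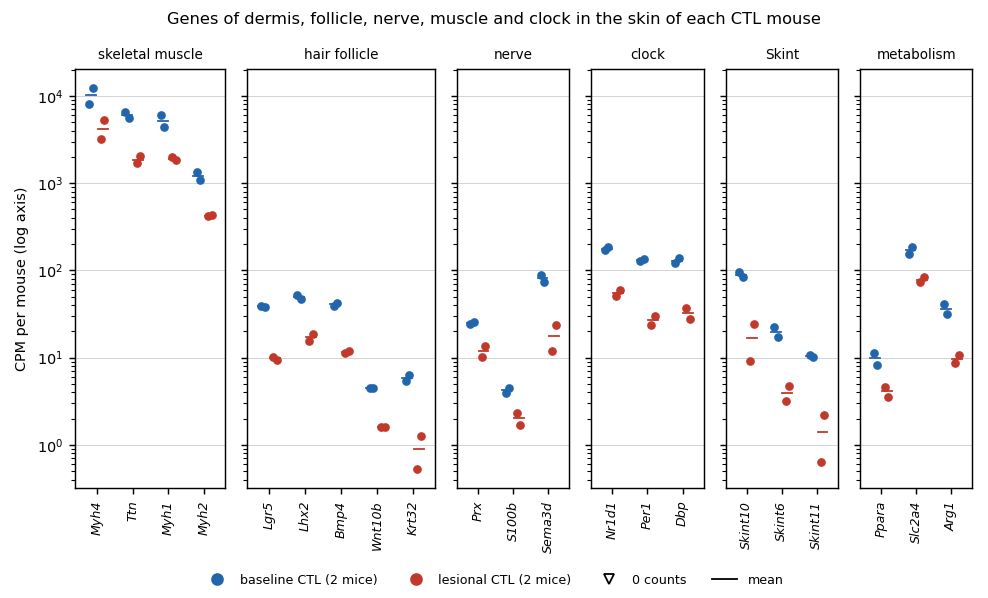
CPM of genes that were lower in lesional skin in each CTL mouse on a log axis, with blue points for the 2 baseline mice, red points for the 2 lesional mice and short lines for group means. In every gene shown both lesional mice lie below both baseline mice, by about 2-fold in Slc2a4 and S100b and by far more in Skint11.

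Interferon-stimulated genes were not raised. Of 21 tested 3 were called lower and none higher, with a median of -0.48, but this rested on 1 baseline mouse. Ifit3 was at 11.5 and 43.6 CPM in the baseline mice and at 8.79 and 7.18 CPM in the lesional mice (log2 fold change -1.79, SE 0.64, FDR 0.0799), and Irf7 was at 45.2 and 109 CPM against 28.3 and 24.6 CPM. Without baseline replicate 2 the median of the list was 0.06, and without baseline replicate 1 it was -0.78. Without lesional replicate 4 or 5 the median was -0.43 and -0.52. The log2 fold change of Ifit3 ranged from -2.44 to -0.53 with 1 mouse left out. The same mouse was the highest in the red blood cell genes, whose summed level was 135 and 326 CPM at baseline and 84.5 and 118 CPM in lesional skin.

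At the extremes, 58 genes had at most 3 counts in each baseline mouse and at least 1 CPM in both lesional mice, and 4 genes showed the reverse. All 62 had been called. Among the 58 were Nppb and Calca, peptides of itch and pain pathways, at 1 and 3 counts against 328 and 333 and at 3 and 0 counts against 97 and 98. The acute-phase genes Saa1 and Saa2 had 1 and 2 counts against 189 and 273, and 2 and 0 counts against 107 and 194. Pdcd1 and Tigit, inhibitory receptors of activated T cells, had 1 and 3 counts against 79 and 61, and 1 and 2 counts against 87 and 59. Chi3l4, a chitinase-like protein of type 2 inflammation, had 0 counts at baseline against 356 and 81, at least 68.5-fold higher, with a more than 4-fold gap between the lesional mice. Fgf23, a hormone best known from bone, had 0 and 1 count against 373 and 368. Uox, the liver enzyme urate oxidase, had 1 count in each baseline mouse against 980 and 544. Of the 4 genes lost, Upk3b, a uroplakin, had 28 and 20 counts at baseline and 0 in both lesional mice, at least 8.89-fold lower. The others were Gabrp, Scgb1a1 and Lrrc31, with at most 3 counts in each lesional mouse.

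Some genes called in the same direction lay side by side. There were 18 runs of at least 4 neighbouring tested genes called in 1 direction, 14 of them higher and 4 lower. They held 93 of the 1918 genes called, so most called genes lay outside such runs. Whether runs were more frequent than without a link to position was not tested. Besides the Sprr2, stefin A, Lce3 and Mmp runs, a run of 8 genes around Trem1 on chromosome 17 from 48125605 to 48354147 was higher, with receptors of myeloid cells such as Trem3, Treml4 and Trem2. The gasdermin genes Gsdmc, Gsdmc2, Gsdmc3 and Gsdmc4, pore-forming proteins of epithelia, formed a run on chromosome 15 from 63775968 to 63912297 with a median log2 fold change of 6.04. A run of 4 Lce1 genes was lower and lay on the same chromosome as the Lce3 run that was higher.

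Whether the change in CTL mice differed from that in butyrate-treated mice was tested over all 8 mice as an interaction. By edgeR 0 of 15163 genes (0.0%) had an FDR below 0.1, with 703 at an unadjusted p below 0.05, and limma-voom also gave 0, with 720. The smallest p was that of Npr3, a natriuretic peptide receptor, which was at 42.2 and 68.5 CPM against 38.0 and 34.9 CPM in CTL mice and at 49.3 and 49.7 CPM against 4.20 and 6.40 CPM in butyrate-treated mice (interaction 2.61 on the log2 scale, FDR 0.84). Mmp13 was the next, with 21.2 and 11.6 CPM in lesional butyrate skin. With baseline butyrate replicate 1 left out 5925 genes passed, and with baseline butyrate replicate 3 left out 0 did, so the outcome of this test turned on 1 mouse.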

How the data were processed

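Per the labels, RNA of dorsal skin was extracted with TRIzol and an RNeasy column, whereas the study's methods name a Reliaprep kit for mouse skin. It was made into Illumina TruSeq libraries and sequenced on a HiSeq 2500. The authors aligned reads with STAR 2.5.2 to GRCm38 through RNASik, counted them with featureCounts and deposited raw counts of protein-coding genes, without normalization. Counts of the 4 CTL mice were filtered (filterByExpr, minimum count 10), scaled by TMM and fitted by edgeR 4.0.16 in R 4.3.3 (glmQLFit, robust; prior count 0.125), with a common biological coefficient of variation of 0.107. Fits with limma 3.58.1 (voom), DESeq2 1.42.0, other scalings, filters, thresholds and mice were alternatives. On simulated counts of 14726 genes with the spread of this comparison, and 200 genes shifted by 2 on the log2 scale, edgeR recovered 97.5% with 13 wrong calls. These counts were drawn from the model that edgeR assumes, with a far smaller part of the genes changed than here. They check the code and say little about the errors of this comparison.

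The 4 mice, the 63 gene lists and the rule for named genes were chosen with earlier results of these data known. The rule took the 10 largest increases and decreases, up to 3 called genes a list, the genes the study measured in mouse skin, the 5 smallest interaction p-values and the 10 genes with most counts in each group. Other genes, and the promoters shown, were chosen after their values were seen. No test was run on lists. Groups came from the labels, which call CTL vehicle and lesional skin atopic dermatitis. The labels do not say outright that libraries of a group are separate mice, as is assumed here, so p-values measure the spread between these libraries. Coordinates are from GENCODE vM21, promoters from RefSeq (GRCm38.p6, 1 entry a gene). Symbols absent from the table (Flg, Il36rn, Cxcl11, Krt85) were not used here. The deposited counts are named as reverse-stranded, and genes that overlap on 1 strand are uncertain. Intervals and floors cover counting error only. The values of some genes are not reported here.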

Additional observations from a re-analysis of the deposited data

How the results depend on the processing

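With the same 4 mice the calls changed little. The count called was 1913 by limma-voom, 1754 by DESeq2, 1968 by edgeR's likelihood ratio test, 1912 with RLE size factors, 2042 without a filter, 1688 with a mean of at least 1 CPM, 1859 with a prior count of 2 and 1795 at an FDR below 0.05. With library totals only, the median of all genes moved to 0.114 and the split to 1170 higher and 731 lower. With 1 mouse left out, the lone mouse of a group being assumed to vary like the others, 1560 to 2048 genes were called, 837 to 1040 of them higher and 723 to 1072 lower. A fit of 6 mice without baseline butyrate called 1860. The fit of all 8 mice, which includes the baseline butyrate mice, called 543 genes (360 higher, 183 lower), 542 of them called here too, and limma-voom over the 8 called 578 (390 and 188). Without a fold minimum 7503 genes passed (3696 higher, 3807 lower). For the interaction the count went from 0 to 5925 without baseline butyrate replicate 1 and was 0 without replicate 3. Of the named genes tested, 72 were no longer called in the fit of all 8 mice and up to 18 when 1 mouse was left out, and no called gene among them reversed under any alternative. Acaca, Scd1 and Krt5, which were not called, changed sign when 1 mouse was left out (up to 0.18, up to 0.25 and down to -0.03). The fit of all 8 mice called none of the Skint, skeletal muscle or interferon genes and 2 of the circadian genes lower, and 5 of the T cell markers higher. That fit also called 2 suprabasal genes, 1 late cornified envelope gene and 0 filaggrin-type and other envelope genes lower. It called 6 late cornified envelope genes higher. The median log2 fold change of inner root sheath keratins over the 5 genes tested with all 4 mice was 0.49, and ranged from -0.54 (without lesional CTL replicate 5) to 0.7 with 1 mouse left out, or from 0.05 to 0.96 over the genes each of these fits tested.

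No paired analysis was possible because the lesional and baseline CTL mice share no replicate number. Genes near 3 counts, about 0.16 CPM, could not be measured at this depth, and with 2 mice a group the results hold for these mice only. Skin with a patch but no allergen was not analysed here.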
